A study of Mus musculus with 8 samples.

Results

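The circadian clock genes described here were 10 genes, namely the period genes Per1, Per2 and Per3, the cryptochrome Cry1, the activators Arntl and Clock, the REV-ERB repressors Nr1d1 and Nr1d2, and the output factors Dbp and Tef. They were found by name, as every probe whose gene name on the array equals 1 of these symbols. No measured value entered this search, but the list of genes was chosen with earlier results of these data known. They are 10 of 37074 gene names on the array and carried 26 probes, of which 22 were detected on all 8 arrays. A probe was counted as detected where the scanner software flagged its spot as well above background. Each of the 10 genes had at least 1 probe detected on all 8 arrays.

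RNA came from tissue holding the cerebral cortex and striatum of 8 male mice under deep pentobarbital anaesthesia, with no other treatment named, and each mouse had its own 1-colour Agilent array. The groups were 4 mice of BTBRTF/ArtRbrc (BTBR/R), an inbred strain studied for autism-like behavior, and 4 mice of C57BL/6J (B6), the common reference strain. The age was 4 months in 7 mice and 6 months in BTBR/R replicate 1. BTBR/R mice were kept in the facilities of 2 universities and B6 mice were bought from a breeder and kept in 1 of them, and both strains had 12 h of light starting at 8 a.m. The hour of dissection is not given in the sources used here, so strain and time of dissection cannot be told apart. B6 arrays filled slide column 1 and BTBR/R arrays slide column 2 of a single slide, and strain cannot be told apart from slide column either.

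The arrays of B6 replicate 1 and BTBR/R replicate 2 stood apart in markers of regions outside the labelled tissue. Values here are log2 signal scaled to each array. Hcrt, a neuropeptide gene of the lateral hypothalamus, read 2.26 and 1.34 on these 2 arrays and -3.31 to -2.95 on the other 6, and Pmch, another such gene, read 0.83 and 0.87 against -5.35 to -4.24. The other 2 hypothalamic markers did not set both arrays apart. Avp read 1.90 in B6 replicate 1 but 0.48 in BTBR/R replicate 2, close to 0.43, 0.41 and 0.41 in B6 replicate 3 and BTBR/R replicates 1 and 4. Vip read 0.95 in B6 replicate 1, the lowest of its strain, and 0.91 in BTBR/R replicate 2, within the range of its strain. The log2 summed level of the 4 hypothalamic markers was 3.61 and 2.93 on the 2 arrays and 1.23 to 1.97 on the others, and that of the 3 thalamic markers was 2.52 and 1.84 against 0.35 to 0.76. On the other arrays the hypothalamic sum was in large part that of Vip, which read 0.88 on BTBR/R replicate 3, where the sum was 1.23. The 5 choroid plexus markers summed to 1.58 in B6 replicate 4 and 2.72 in BTBR/R replicate 1 and to 3.93 to 5.38 on the other 6 arrays. The part of such tissue in the clock gene values was not tested, and results are also given without B6 replicate 1 and BTBR/R replicate 2 together, an alternative chosen after these values were seen.

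The mammalian clock is a feedback loop of transcription. The proteins of Arntl (also called BMAL1) and Clock pair up and switch on the Per and Cry genes through E-box sequences, and PER and CRY proteins then accumulate and repress that pair. A linked loop runs through Nr1d1 and Nr1d2, whose products repress Arntl, and factors such as Dbp and Tef carry the rhythm to further genes through D-box sequences. In cortex and striatum of mice the transcripts of Dbp, Nr1d1 and the Per genes run in a daily rhythm roughly opposite to that of Arntl, and Per1 and Per2 can also be induced quickly by neuronal activity, and Per1 by glucocorticoids. The clock genes can therefore also be read for a difference in the hour at which tissue was taken. Like levels do not show like hours, since a rhythm passes the same level when rising and when falling.

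Values are the scaled signal, meaning log2 of the ratio of the scanner's background-corrected signal to the 75th percentile of that array, and changes are BTBR/R minus B6 on that scale with the standard error from limma. A gene was represented by its brightest probe, the one with the highest mean scaled signal over the 8 arrays. No clock gene was called at an adjusted p below 0.05 together with a change of at least 2-fold (0 of 10), where 2.22% of the 18850 genes whose brightest probe was detected on all 8 arrays were called. At an unadjusted p under 0.05 there were 4 of 10 clock genes, beside 37.6% of all such genes, and the per-probe test of the study's methods with the same thresholds called 0 of 10. Without the fold threshold, 2 of 10 clock genes passed the adjusted p, Per1 and Per2, both higher in BTBR/R mice. Over all such genes 28.4% passed, 13.9% up and 14.5% down in BTBR/R mice, so the clock genes' 2 of 10 was no higher than the background. The strains did not overlap for 2 of 10 clock genes (Per2 and Per3), against 34.9% of all such genes. Without B6 replicate 1 and BTBR/R replicate 2 again 2 of 10 clock genes passed the adjusted p and 0 were called, but these were Per2 and Nr1d1, and 21% of all such genes passed. The median change of the 10 clock genes was 0.07, and that of all such genes was 0.0028.

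By probe the picture was similar. Of the 22 clock probes detected on all 8 arrays, 0 were called and 6 passed the adjusted p, 5 of them up and 1 down in BTBR/R mice. Of all 28547 probes detected on all 8 arrays, 2.2% were called and 26.9% passed the adjusted p, 13% higher and 13.9% lower. The strains did not overlap for 6 of these 22 clock probes and for 32.6% of all such probes. Over all 56605 probes, including those near background, 22.4% were called and 39.3% passed the adjusted p. With every probe considered, 5 of the 10 genes had a probe past the adjusted p, namely Per1, Per2, Per3, Nr1d2 and Tef. Over all 18857 genes with a probe detected on all 8 arrays, 34% had such a probe past the adjusted p. Of the 6 clock genes with 2 or more detected probes 3 had one past the adjusted p, beside 43.1% of the 6508 such genes.

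**Figure D1:**
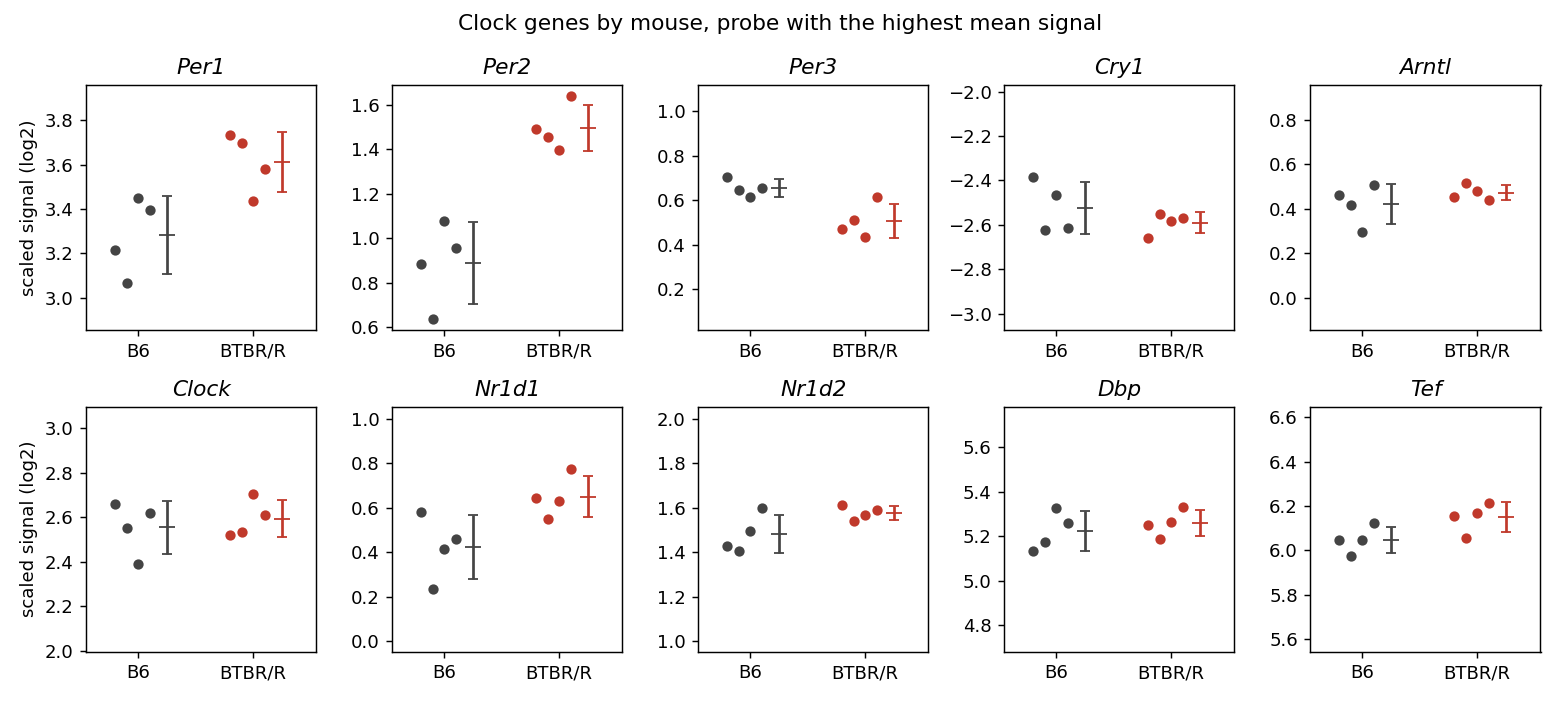
Scaled signal (log2, vertical axis) of the brightest probe of each of the 10 clock genes, with a point per mouse (B6 grey, BTBR/R red) and a bar for mean ± SD (n = 4 per strain); every panel spans the same height in log2 units. Per2 separates the strains, with B6 mice at 0.64 to 1.08 and BTBR/R mice at 1.40 to 1.64, while Dbp, Arntl and Clock overlap.

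The period genes gave the largest differences, and the probes that carry those results are shown first. Each array probe has 60 bases, of which the first 30 are printed 5′ to 3′ with no base marked. Positions are those of build mm9 as given with the array. No gene model of that build was used here, so the exon or UTR under a probe was not determined. Whether BTBR/R mice carry the same bases under a probe was not examined either, for these or any other probes.
Per1 (A_55_P1970033), chr11:68923364-68923423, plus strand: gtgttctcagctctaccctctaccaatgac
Per2 (A_55_P2737144), chr1:93312595-93312654, minus strand: ccagtgcaatatatttgtgtgactgcttgt
Per3 (A_66_P135046), chr4:150406022-150406081, minus strand: taaaagaatttttaccacaacacacactcc
Per3 (A_66_P137063), chr4:150385608-150385667, minus strand: tttagacagtcgtaagctgccacgtgtggg
Per3 (A_55_P2752088), chr4:150378473-150378532, minus strand: ttaagatgctgcctgtgacatttcttggag

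Per2, a core repressor of the loop, rose in BTBR/R mice. Its scaled signal was 0.88, 0.64, 1.08 and 0.96 in B6 replicates 1 to 4 and 1.49, 1.46, 1.40 and 1.64 in BTBR/R replicates 1 to 4. Every BTBR/R mouse lay above every B6 mouse, and B6 replicate 2 was the lowest. The means were 0.89 ± 0.19 and 1.498 ± 0.10 (SD, n = 4 each), a change of 0.61 (SE 0.10, 95% interval 0.37 to 0.85) or 1.52-fold, with an adjusted p of 0.00248 by limma. The change stayed between 0.53 and 0.67 and past the adjusted p in all 16 alternatives run, leaving out the older BTBR/R mouse included. It was 0.62 without B6 replicate 1 and BTBR/R replicate 2 (adjusted p = 0.0222). A further Per2 probe, A_52_P536869, was detected on 4 of 4 B6 arrays and 0 of 4 BTBR/R arrays. Its measured means were -4.42 and -4.54, its B6 mean was dimmer than the dimmest detected signals of BTBR/R mice, and it gives no fold.

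By brightest probe, Per2 also differed from the other members in size of change. Within each array the scaled signal of every other clock gene at its brightest probe was subtracted from that of Per2, and the strain difference of the result was tested by an exact two-sided permutation over the 8 mice. On these probes the Per2 change was larger than that of each of the other 9 genes, by 0.28 against Per1 at the least and 0.76 against Per3 at the most. This depends on the probe for Per3, whose 3′ probe changed by 0.60, about as much as Per2 (0.61). Each of the 9 comparisons gave p = 0.0286 in the exact permutation test, which is the smallest that 4 mice against 4 allow, and 0.0286 after adjustment over the 9. Per2 was singled out after its values were seen, so these comparisons describe it and give no independent evidence.

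Per1, which like Per2 represses the loop and responds fast to stimuli, was higher in BTBR/R mice by a smaller amount. Its scaled signal was 3.21, 3.07, 3.45 and 3.40 in B6 replicates 1 to 4 and 3.73, 3.69, 3.44 and 3.58 in BTBR/R replicates 1 to 4. The strains overlapped, since BTBR/R replicate 3 lay just below B6 replicate 3. The means were 3.28 ± 0.17 and 3.61 ± 0.13 (SD, n = 4 each), a change of 0.33 (SE 0.11, 95% interval 0.08 to 0.58) or 1.26-fold, with an adjusted p of 0.0438 by limma. This result was marginal. It was past the threshold in 4 of 16 alternatives, with adjusted p between 0.0324 and 0.138, and it no longer passed without any 1 of B6 replicates 1, 2 and 4 or BTBR/R replicates 1, 2 and 4 (change 0.26 to 0.37). It was 0.28 without B6 replicate 1 and BTBR/R replicate 2 together (adjusted p = 0.184). A second Per1 probe, A_55_P2019327, was detected on no array.

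Per3, the period gene least needed for the core rhythm, differed in direction between its probes. The 3 probes lay along 27.549 kb of chromosome 4 on the minus strand, and all were detected on all 8 arrays. The probe nearest the 3′ end of the gene, A_55_P2752088, rose in BTBR/R mice. It read -0.49, -0.52, -0.44 and -0.51 in B6 replicates 1 to 4 and 0.18, 0.10, -0.05 and 0.20 in BTBR/R replicates 1 to 4. Every BTBR/R mouse lay above every B6 mouse, and the B6 mice lay close together. The change was 0.60 (SE 0.07, 95% interval 0.44 to 0.75) or 1.51-fold, with an adjusted p of 0.000216 by limma, and it was past the threshold in all 16 alternatives, at 0.54 to 0.65. It was again 0.60 without B6 replicate 1 and BTBR/R replicate 2 (adjusted p = 0.00446).

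The brightest Per3 probe, A_66_P137063, lies 7.135 kb upstream of that one, and it was not past the threshold. It read 0.71, 0.65, 0.61 and 0.65 in B6 replicates 1 to 4 and 0.47, 0.51, 0.43 and 0.61 in BTBR/R replicates 1 to 4. All BTBR/R values lay below the B6 values, the highest of them by a very small margin. The change was -0.15 (SE 0.05), with an adjusted p of 0.0641 by limma, and 4 of 16 alternatives brought it past the threshold, among them leaving out BTBR/R replicate 4 (-0.18, adjusted p = 0.0325).

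The Per3 probe nearest the 5′ end, A_66_P135046, fell in BTBR/R mice. It read -2.45, -2.29, -2.24 and -2.33 in B6 replicates 1 to 4 and -2.51, -2.81, -2.86 and -2.55 in BTBR/R replicates 1 to 4. The strains did not overlap, although B6 replicate 1 and BTBR/R replicate 1 were close. The change was -0.35 (SE 0.10, 95% interval -0.58 to -0.13), or 1.28-fold lower, with an adjusted p of 0.0241 by limma. It was past the threshold in 10 of 16 alternatives and no longer passed without B6 replicate 2, 3 or 4 or BTBR/R replicate 2 or 3 (change -0.35 to -0.29). With normexp background correction the change was -0.19 (adjusted p = 0.0414), and without B6 replicate 1 and BTBR/R replicate 2 together it was -0.35 with an adjusted p of 0.0614.

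The unequal change along Per3 was tested on the difference between probes within each array. These tests were chosen after the values were seen, so they describe the probes and give no independent evidence. The smallest p that 4 mice against 4 allow in the exact permutation test is 0.0286. Against the brightest probe, the 3′ probe moved by 0.75 in favour of BTBR/R mice (p = 0.0286 in an exact two-sided permutation test, 0.0429 adjusted over the 3 probe pairs). Against the 5′ probe it moved by 0.95 (p = 0.0286 in the exact permutation test, adjusted 0.0429). The brightest and the 5′ probe differed by 0.20 in their change (exact permutation p = 0.0857, adjusted 0.0857). The annotation assigns the 3 probes to different transcript records of Per3, so the 3 signals need not come from the same transcripts. Differences between the strains in the bases under the probes were not examined. The values therefore give no single direction for Per3.

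**Figure D2:**
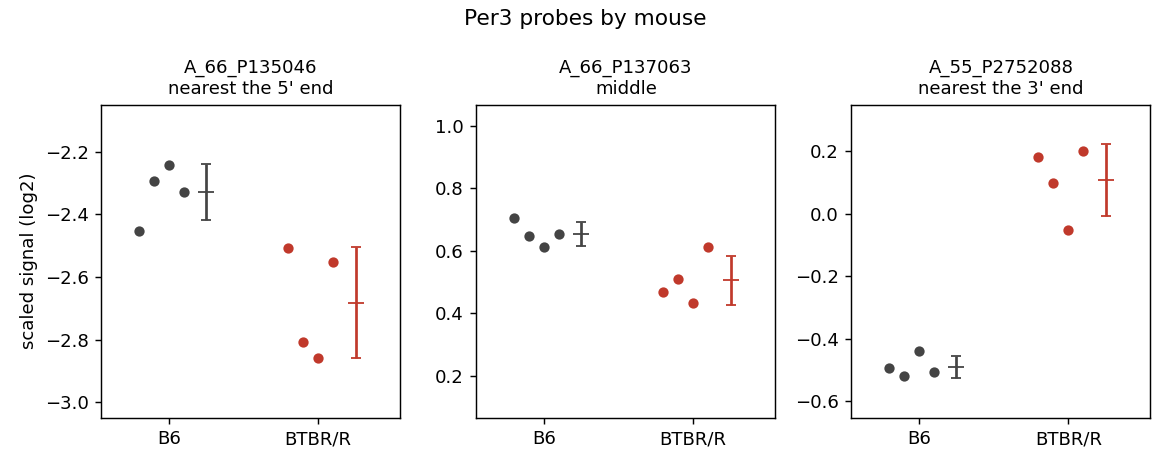
Scaled signal (log2, vertical axis) of the 3 Per3 probes in order from the 5′ to the 3′ end of the gene, with a point per mouse (B6 grey, BTBR/R red) and a bar for mean ± SD (n = 4 per strain); all panels span the same height in log2 units. BTBR/R mice lie below B6 mice at the 5′ probe (-0.35) and above them at the 3′ probe (0.60).

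Promoters of the period genes hold the sequences through which the loop acts on them. Of the 3 period genes Per1 and Per3 had an entry in the promoter table used here, and Per2 was not searched. For 14 start sites of 9 clock genes, a window of 250 bases before to 50 bases after the start was taken from RefSeq (GRCm38.p6) and searched on both strands for 4 motifs: the E-box CACGTG, the D-box TTATGTAA, the ROR element TAGGTCA bound by the REV-ERB proteins, and the cyclic AMP response element TGACGTCA. None of the 4 motifs contains another. The E-box was in 4 of the 14 windows (Per1, Cry1 and both of 2 Tef windows) and in 7.15% of all 32851 windows. The D-box was in the Per3 window, with 2 copies, and in 0.938% of all windows. The ROR element was in the Arntl window, 30 bases after the start, and in 2.61% of all windows, and the response element TGACGTCA was in 0 of the 14 and in 1.79% of all. These are matches of letters and say nothing of binding in these mice. The 250 bases before the start are shown for Per1 and Per3 because they hold the E-box (166 bases before the start) and the D-boxes (205 and 158 bases before), which are in capitals.
Per1, GRCm38.p6 chr11:69098699-69098948, plus strand: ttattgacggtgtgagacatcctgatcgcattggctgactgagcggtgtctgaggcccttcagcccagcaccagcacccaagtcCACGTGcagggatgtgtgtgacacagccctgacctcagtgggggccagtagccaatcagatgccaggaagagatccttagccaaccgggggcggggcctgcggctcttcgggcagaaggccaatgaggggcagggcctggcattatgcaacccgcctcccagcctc
Per3, GRCm38.p6 chr4:151044666-151044915, minus strand: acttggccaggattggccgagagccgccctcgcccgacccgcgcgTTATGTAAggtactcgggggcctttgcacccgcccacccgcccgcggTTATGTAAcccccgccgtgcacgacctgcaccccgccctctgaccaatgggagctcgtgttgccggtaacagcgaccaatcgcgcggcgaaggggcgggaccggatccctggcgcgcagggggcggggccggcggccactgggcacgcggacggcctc

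Cry1, which with the PER proteins represses the loop, did not pass the test. Its brightest probe read -2.38, -2.62, -2.47 and -2.61 in B6 replicates 1 to 4 and -2.66, -2.55, -2.58 and -2.57 in BTBR/R replicates 1 to 4. The strains overlapped, and the change was -0.07 (95% interval -0.23 to 0.09, adjusted p = 0.468 by limma). The other Cry1 probe, A_52_P420500, was detected on 4 of 4 B6 arrays and 0 of 4 BTBR/R arrays, with measured means of -4.70 and -5.37. Its B6 mean was likewise too dim to be detected in BTBR/R mice, so it gives no fold.

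The activators Arntl and Clock did not pass the test on any probe. The brightest Arntl probe read 0.46, 0.42, 0.30 and 0.51 in B6 replicates 1 to 4 and 0.45, 0.52, 0.48 and 0.44 in BTBR/R replicates 1 to 4. The strains overlapped, with BTBR/R replicate 2 just above the highest B6 mouse, and the change was 0.05 (95% interval -0.08 to 0.19, adjusted p = 0.506 by limma). The other 2 Arntl probes gave changes of -0.00 (A_66_P127371, 95% interval -0.23 to 0.23) and -0.07 (A_55_P2735445, -0.30 to 0.17), and on both BTBR/R replicate 2, an array with high hypothalamic markers, was the highest of its strain (-0.73 and -0.80). Without it and B6 replicate 1 these changes were -0.07 and -0.15, neither past the threshold.

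Clock, the partner of Arntl, was equally close between strains. Its brightest probe read 2.66, 2.55, 2.39 and 2.62 in B6 replicates 1 to 4 and 2.52, 2.54, 2.71 and 2.61 in BTBR/R replicates 1 to 4. The change was 0.04 (95% interval -0.14 to 0.22, adjusted p = 0.718 by limma), and without B6 replicate 3, the lowest mouse, it was -0.02. The other 2 Clock probes detected on all arrays gave 0.07 and 0.04. The remaining Clock probe, A_55_P2741789, was detected on 1 array, that of BTBR/R replicate 2 (-2.91).

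The REV-ERB genes Nr1d1 and Nr1d2, whose products shut down Arntl transcription, had 1 of their 4 probes past the test, a probe of Nr1d2 that was higher in BTBR/R mice, and the other 3 did not pass. Nr1d1 read 0.58, 0.23, 0.42 and 0.46 in B6 replicates 1 to 4 and 0.65, 0.55, 0.63 and 0.77 in BTBR/R replicates 1 to 4. B6 replicate 1 reached into the BTBR/R range and B6 replicate 2 was the lowest. The change was 0.23 (SE 0.09, 95% interval 0.03 to 0.43) or 1.17-fold, with an adjusted p of 0.0736 by limma. Without B6 replicate 1 it was 0.28 with an adjusted p of 0.0410, and without that mouse and BTBR/R replicate 2 it was 0.31 with an adjusted p of 0.0423.

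For Nr1d2, the change was 0.10 (adjusted p = 0.213 by limma) at the brightest probe, 0.18 (0.0933) at A_55_P2911007 and 0.29 (0.0218) at A_52_P303891. The last of these read 0.40, 0.22, 0.28 and 0.34 in B6 replicates 1 to 4 and 0.68, 0.46, 0.53 and 0.74 in BTBR/R replicates 1 to 4, with no overlap, or 1.23-fold. All 3 probes pointed the same way. The change of A_52_P303891 was past the threshold in 12 of 16 alternatives and no longer passed without B6 replicate 2 or 3 or BTBR/R replicate 1 or 4 (change 0.25 to 0.28). For A_55_P2911007, leaving out BTBR/R replicate 2 brought the adjusted p to 0.0403 (change 0.23). Without B6 replicate 1 and BTBR/R replicate 2 together, A_52_P303891 was at 0.37 (adjusted p = 0.0175) and A_55_P2911007 at 0.22 (0.0805).

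Dbp, which activates transcription at D-boxes and is known for a very wide daily swing, was the least different of the output genes. It read 5.13, 5.17, 5.33 and 5.26 in B6 replicates 1 to 4 and 5.25, 5.19, 5.26 and 5.33 in BTBR/R replicates 1 to 4. Both strains covered almost the same range, with B6 replicate 3 as high as BTBR/R replicate 4. The change was 0.04 (95% interval -0.11 to 0.18, adjusted p = 0.681 by limma), and the second Dbp probe gave 0.02 (95% interval -0.12 to 0.16).

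Tef, a relative of Dbp that binds the same sequence, gave small positive values on each of its 4 probes. The brightest probe read 6.04, 5.97, 6.05 and 6.12 in B6 replicates 1 to 4 and 6.16, 6.06, 6.17 and 6.22 in BTBR/R replicates 1 to 4, a change of 0.10 (95% interval -0.03 to 0.23, adjusted p = 0.184 by limma). The probe A_52_P485573 read 3.26, 3.33, 3.24 and 3.37 in B6 replicates 1 to 4 and 3.49, 3.45, 3.44 and 3.55 in BTBR/R replicates 1 to 4, with no overlap. Its change was 0.18 (SE 0.05) or 1.13-fold, with an adjusted p of 0.0266 by limma. It was past the threshold in 10 of 16 alternatives and no longer passed without B6 replicate 1 or 3 or BTBR/R replicate 1 or 4 (change 0.16 to 0.18). It also no longer passed with median scaling (0.15, adjusted p = 0.0957) and without B6 replicate 1 and BTBR/R replicate 2 together (0.18, 0.0868). The other 2 Tef probes gave 0.01 and 0.08, and both turned sign in an alternative.

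**Figure D3:**
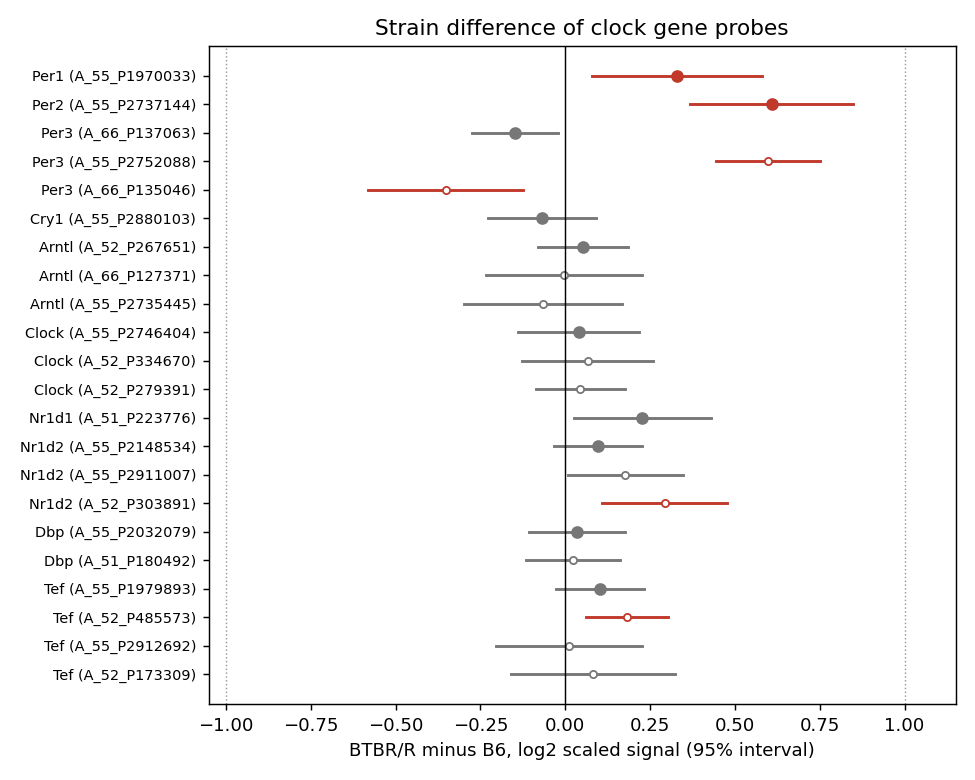
Change of each of the 22 clock probes detected on all 8 arrays (BTBR/R minus B6, log2 scaled signal, horizontal axis) with its 95% interval from limma (n = 4 per strain); filled points are the brightest probe of a gene, red marks an adjusted p below 0.05, and dotted lines mark 2-fold. The changes run from -0.35 to 0.61, so every probe lies within the dotted lines.

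The clock genes were then read as a check of dissection time. The genes that peak in or near the light phase (Per1, Per2, Per3, Nr1d1, Nr1d2, Dbp and Tef) were averaged on each array by their brightest probes, and the mean of Arntl and Clock was subtracted. This difference was 1.01, 0.97, 1.29 and 1.07 in B6 replicates 1 to 4 and 1.28, 1.19, 1.11 and 1.29 in BTBR/R replicates 1 to 4. The means were 1.08 ± 0.14 and 1.22 ± 0.09 (SD, n = 4 each), 0.13 apart, and the strains overlapped, with B6 replicate 3 among the highest of the 8. The means were 1.11 and 1.23, 0.12 apart, without B6 replicate 1 and BTBR/R replicate 2. Of the genes averaged, Per1 (0.33) and Per2 (0.61) changed most between strains, and the others ran from -0.15 (Per3) to 0.23 (Nr1d1). Per3 entered by its brightest probe, while its 3′ probe changed by 0.60. The difference was not computed without Per1 and Per2, which neuronal activity can also induce, or with that probe. In the strain comparison Dbp (0.04) and Arntl (0.05), which run opposite to each other through the day, did not pass the test, and the 95% interval of the Dbp change ended at 0.18. Each mouse was sampled once and the hour is not known, so these values give no phase. The close levels of Dbp and Arntl do not show that both strains were dissected at the same hour.

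Spread among mice of a strain was slightly wide for the clock genes in B6 mice. The median SD of the 10 genes was 0.103 in B6 mice and 0.0726 in BTBR/R mice, beside 0.0719 and 0.0780 over all genes detected on all 8 arrays. The widest were Per2 (0.185) and Per1 (0.175) in B6 mice and Per1 (0.134) in BTBR/R mice. The narrowest were Per3 (0.0387) in B6 mice and Nr1d2 (0.0304) in BTBR/R mice.

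Likeness to Dbp was measured by Pearson's r of each mouse's deviation from its strain mean, over 8 arrays, among the other 9 members and 18 other clock genes. Over all 8 arrays the highest values were those of Per2 (r = 0.72), Tef (0.62) and Nr1d2 (0.60). At the other end were Arntl (-0.62), Nampt (-0.59), a metabolic gene under E-box control, and Rora (-0.56), an activator of Arntl. Arntl and Clock deviated together (0.71), as did Per1 and Per2 (0.73). Without B6 replicate 1 and BTBR/R replicate 2, over 6 arrays, r with Dbp was 0.96 for Per2, 0.61 for Tef, 0.42 for Nr1d2, -0.51 for Arntl and -0.80 for Nampt, while Rora turned to 0.39. The order below Per2 changed, since Nr1d1 (0.22 over 8 arrays) stood at 0.84, Cry1 (-0.13 over 8 arrays) at 0.83 and Bhlhe40 (0.41 over 8 arrays) at 0.81, all above Tef and Nr1d2. Rora had read 4.40 in B6 replicate 1 and 3.79 to 4.02 in the other 7 mice. Arntl with Clock was then at 0.85 and Per1 with Per2 at 0.81. The 8 points share 1 slide and the scaling of each array, and these values are a description only.

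Other genes of the clock pathway were taken from a list of 20, of which 18 had their brightest probe detected on all 8 arrays. None of the 20 was called at its brightest probe, by limma or by the methods' own test, and 8 had an unadjusted p under 0.05. All 8 were among the 18, beside 37.6% of all genes. Of the 18, 7 passed the adjusted p, 4 up and 3 down in BTBR/R mice, beside 28.4% of all genes. The median change of the 18 was 0.04. Without B6 replicate 1 and BTBR/R replicate 2, 4 of the 18 passed (Bhlhe40, Nfil3, Csnk1e and Arntl2), beside 21% of all genes.

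Among the repressors, Bhlhe40 (DEC1), which competes for E-boxes and also responds to activity, rose about as much as Per2. It read 0.39, 0.13, 0.35 and 0.26 in B6 replicates 1 to 4 and 0.94, 0.80, 0.78 and 1.06 in BTBR/R replicates 1 to 4, with no overlap. The change was 0.61 (SE 0.09) or 1.53-fold, with an adjusted p of 0.000949 by limma. Cry2, the second cryptochrome, rose by 0.19 (adjusted p = 0.0241), and this no longer passed without B6 replicate 2 (0.16) or BTBR/R replicate 3 (0.17), with median scaling (0.16, adjusted p = 0.0724) and without B6 replicate 1 and BTBR/R replicate 2 together (0.21, 0.0618). The other 2 Cry2 probes gave -0.15 and -0.11, neither past the threshold, so Cry2 had no single direction.

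Nfil3 (E4BP4), the repressor that opposes Dbp at D-boxes, rose by 0.36 (SE 0.07) or 1.28-fold, with an adjusted p of 0.00566 by limma, and its second probe rose by 0.42. Hlf, the remaining relative of Dbp and Tef, had a change of -0.18 (adjusted p = 0.067), and it passed with quantile normalization (-0.19, adjusted p = 0.0420), with scaling to the 75th percentile of detected probes (-0.19, 0.0437) and without BTBR/R replicate 4 (-0.22, 0.0282). With B6 replicate 1 and BTBR/R replicate 2 both left out Hlf was at -0.11 (adjusted p = 0.213). Csnk1e, a kinase that marks PER proteins for decay, rose by 0.40 (adjusted p = 0.00251) at its brightest probe, while its other 2 probes gave 0.13 and 0.07, not past the threshold. Npas2, which can stand in for Clock in forebrain, had a change of 0.12 (adjusted p = 0.208).

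Lower in BTBR/R mice were Arntl2, a close relative of Arntl, at -0.29 (SE 0.04, adjusted p = 0.0013 by limma), Rorb at -0.39 (0.0263) and the deubiquitinase gene Usp2 at -0.17 (0.0356). Arntl2 read 0.96 to 0.99 in B6 mice and 0.64 to 0.75 in BTBR/R mice, and it was past the threshold in all 16 alternatives. Rorb, a nuclear receptor of layer IV neurons, no longer passed without B6 replicate 1, 3 or 4 or BTBR/R replicate 1 or 3 (-0.39 to -0.32), and with normexp background correction it was at -0.25 (adjusted p = 0.0448). Usp2 no longer passed without B6 replicate 2, 3 or 4 or BTBR/R replicate 2, 3 or 4 (-0.18 to -0.15). With B6 replicate 1 and BTBR/R replicate 2 both left out, Rorb was at -0.36 (adjusted p = 0.107) and Usp2 at -0.18 (0.0645). At the level of single probes, A_65_P05046 of Fbxw11, which encodes a ubiquitin ligase subunit acting on PER proteins, was called (-2.84, detected on 4 B6 and 3 BTBR/R arrays), while the brightest Fbxw11 probe gave -0.11 and was not past the threshold. Of the remaining Fbxw11 probes, A_55_P2739404 passed the adjusted p (-0.38, adjusted p = 0.0165 by limma) and A_55_P1961894 did not (-0.12, 0.107).

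**Figure D4:**
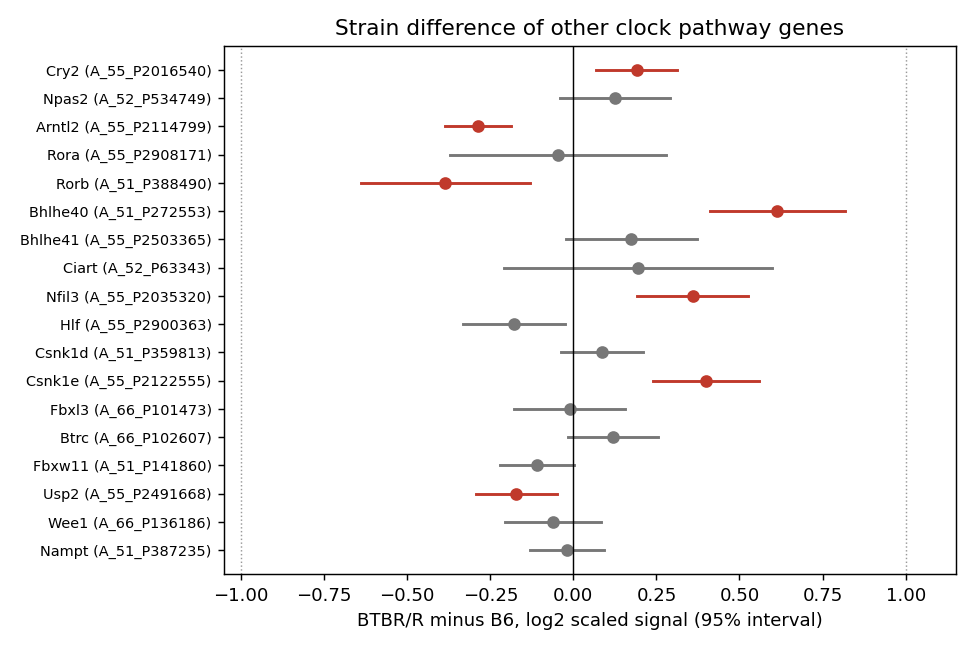
Change of the brightest probe of the 18 other clock pathway genes detected on all 8 arrays (BTBR/R minus B6, log2 scaled signal, horizontal axis) with its 95% interval from limma (n = 4 per strain); red marks an adjusted p below 0.05 and dotted lines mark 2-fold. Bhlhe40 (0.61) lies farthest to the right and Rorb (-0.39) farthest to the left.

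Since Per1, Per2 and Bhlhe40 also answer to neuronal activity, immediate early genes were set beside them. Of 14 such genes, 8 were called and 10 passed the adjusted p, all of them higher in BTBR/R mice, with a median change of 1.07. Of all genes 2.22% were called, 28.4% passed the adjusted p and 13.9% passed it with a higher level in BTBR/R mice. The mean scaled signal of the 14 genes was 0.55, 1.13, 1.74 and 0.87 in B6 replicates 1 to 4 and 2.19, 2.32, 2.13 and 2.11 in BTBR/R replicates 1 to 4. No B6 mouse reached the BTBR/R range. B6 replicate 3 was the highest of its strain here and for Per1 and Per2, but for Bhlhe40 it was B6 replicate 1. The lowest B6 mouse was replicate 1 here and replicate 2 for Per1, Per2 and Bhlhe40. Of the 14, 6 were called and 10 passed the adjusted p without B6 replicate 1 and BTBR/R replicate 2. The 4 with the largest change were Egr2 (2.27), Arc (1.94), Fos (1.74) and Junb (1.41). The part of neuronal activity in the Per1, Per2 and Bhlhe40 values was not tested.

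**Figure D5:**
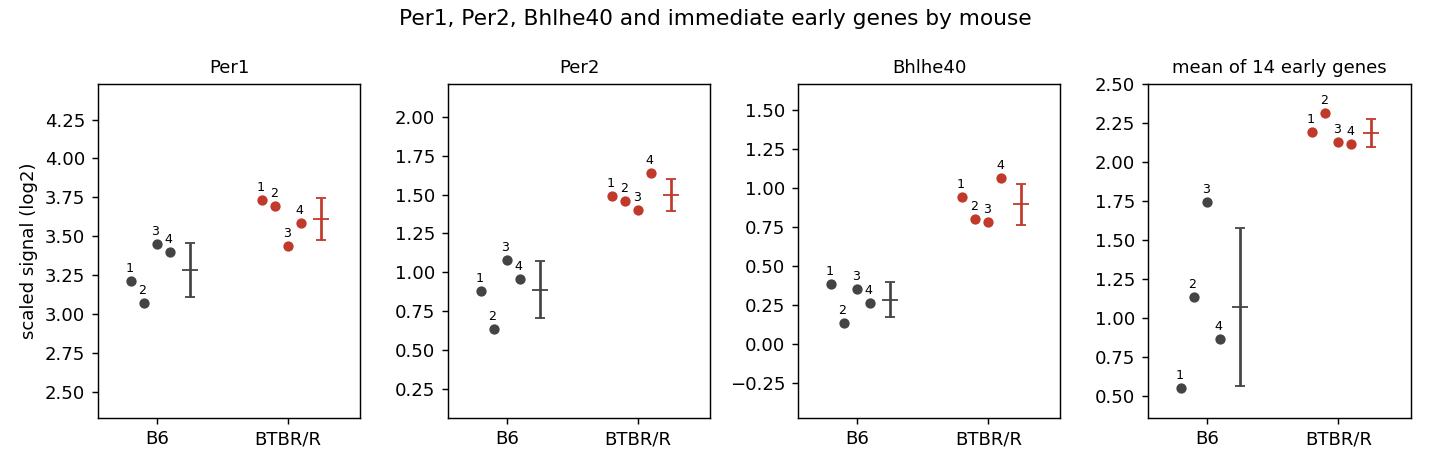
Scaled signal (log2, vertical axis) of Per1, Per2 and Bhlhe40 and the mean scaled signal of 14 immediate early genes, with a point per mouse numbered by replicate (B6 grey, BTBR/R red) and a bar for mean ± SD (n = 4 per strain); all panels span the same height in log2 units. BTBR/R mice lie above B6 mice in the panels of Per2, Bhlhe40 and the early genes and overlap them in that of Per1. The early genes' means are 1.07 in B6 mice and 2.19 in BTBR/R mice.

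Glucocorticoid-responsive genes moved in both directions. Of 12 such genes, 1 was called (Mt2, -1.19) and 7 passed the adjusted p, 4 higher and 3 lower in BTBR/R mice, with a median change of 0.11. The shares of all genes were 2.22% called and 28.4% past the adjusted p, 13.9% higher and 14.5% lower. With B6 replicate 1 and BTBR/R replicate 2 both left out, 6 of the 12 passed, 4 higher and 2 lower, and the median change was 0.23. The 4 with the largest change were Mt2, Mt1 (-0.99), Plin4 (-0.96, adjusted p = 0.0623 by limma, not past the threshold) and Cdkn1a (0.65). The part of these hormones in the Per1 value was not tested.

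The tissue label was checked with lists of marker genes. All 5 markers of cortical excitatory neurons and all 5 of striatal projection neurons were detected on all 8 arrays, and 1 of these 10 passed the adjusted p (Rorb). Markers of other cell types were also detected. Of 4 oligodendrocyte and 4 astrocyte markers, 2 each passed the adjusted p and were lower in BTBR/R mice, 2 of 3 red blood cell markers were called lower, and none of 5 choroid plexus, 3 thalamus and 3 inhibitory neuron markers passed. Of 4 microglial markers 1 was higher and 1 lower, and 1 of 3 endothelial and 1 of 4 hypothalamic markers were lower in BTBR/R mice. The hypothalamic one was Vip, which read 0.80 to 1.27 over the 8 arrays. It did not rise on the arrays where Hcrt and Pmch did, so its count is no measure of hypothalamic tissue. Beside these small counts, 28.4% of all genes passed the adjusted p, 14.5% with a lower level in BTBR/R mice, and 2.22% were called. Summed over their markers, red blood cells gave a log2 summed level of 6.11 to 7.77 in B6 mice and 5.53 to 5.84 in BTBR/R mice. The sums of microglia (5.36 to 5.42 in B6 mice, 5.16 to 5.30 in BTBR/R mice) and endothelial cells (3.83 to 3.94, 3.44 to 3.73) did not overlap either. The sums of all other marker lists of cell types and regions overlapped between strains. The part of cell makeup in the clock gene values was not tested, and in bulk tissue fewer cells of a type and less RNA per cell cannot be told apart. Detection reached lower on the B6 arrays, where 64.5% to 66.8% of probes were detected and the lowest detected signal was 14.5 to 17.8, than on the BTBR/R arrays, with 53.5% to 57.2% and 36.1 to 47.1, and this limits the dim probes of Per2 and Cry1 described above.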

How the data were processed

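Total RNA of cerebral cortex and striatum from 4 BTBR/R and 4 B6 male mice was measured on 8 arrays, grouped by the strain in the labels. Per the file headers, the authors deposited Agilent Feature Extraction (10.7.3.1, from the submitters' processing notes) intensities per spot, with the processed signal background-subtracted and detrended. The authors also deposited log2 values, which equalled the log2 processed signal less 1 constant per array (99.97% of probes or more, tolerance 0.01). Of 62976 spots, 59305 were not controls, and after outliers were left out and spots of 1 probe averaged 56605 probes remained. The 75th percentile of the signal was 535 to 589 per array.

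The scaled signal was compared with limma 3.58.1 in R 4.3.3 (lmFit, eBayes), with Benjamini-Hochberg adjustment over all 56605 probes. Sequences and plots were handled in Python 3.11.15 with pandas 2.3.3, numpy 2.4.6 and matplotlib 3.10.9. Tested on simulated data for BTBR/R against B6 (56583 probes), the fit called 191 of 200 probes changed by 1.5 on the log2 scale (95.5%) and 3 unchanged ones. The number of arrays limits precision.

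Named were all 10 clock genes on every detected probe, Cry2, Npas2, Hlf and Nfil3, up to 8 other pathway genes with the largest change past the adjusted p, and at most 4 genes per further list. The few other genes named were chosen after their values were seen. Some results on single probes of the pathway list are not reported here. Members and lists were chosen with earlier results of these data known, and the comparisons within arrays of Per2 with other genes and among Per3 probes were chosen after their values were seen. Gene symbols are those of the arrays, and all 10 matched the RefSeq table. Replicate numbers did not pair the samples (correlations of same-numbered deviations -0.07 to 0.16). Replicates were separate mice.

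Alternatives were normexp background (offset 50), quantile and median scaling, the 75th percentile of detected probes, a fit without dim probes, the authors' log2 values, a replicate block, the methods' t-test, any probe of a gene, and leaving out each mouse. Leaving out B6 replicate 1 and BTBR/R replicate 2 together was added after the data were seen. With 1 slide and 1 scan for all 8 arrays, neither could enter the fit as a block.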

Additional observations from a re-analysis of the deposited data

Results flagged for a closer look

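The array of BTBR/R replicate 2 stood apart at the Arntl probe A_66_P127371, with a scaled signal of -0.73 where the other 3 BTBR/R mice lay between -1.08 and -1.02. Its gap to the nearest of them was 0.839 of the strain's whole range, above Dixon's 95% critical value for 4 samples. It was the 1 case among 62 groups of 4 mice examined, and chance alone flags about 1 in 20 such groups. This array also carried high hypothalamic markers (Hcrt at 1.34), and their part in the Arntl value was not tested.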

How the results depend on the processing

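No clock gene was called under any alternative run. Per2, the 3′ Per3 probe, Bhlhe40, Nfil3, Csnk1e and Arntl2 kept their direction and stayed past the adjusted p in all 16 alternatives and also without B6 replicate 1 and BTBR/R replicate 2 together. The count of clock genes past the adjusted p was 2, and it was 1 with quantile normalization, 1 with median scaling, 1 with the replicate block, 1 to 2 with 1 mouse left out, and 5 with any probe of the gene. For the other clock genes it was 7, then 8 with normexp, quantile normalization, the 75th percentile of detected probes and the methods' t-test, 6 with median scaling, 4 with the replicate block and 4 to 7 with 1 mouse left out. Per1 no longer passed the adjusted p with normexp (0.28, adjusted p = 0.0769), quantile normalization (0.33, 0.0724), median scaling (0.30, 0.0549), the 75th percentile of detected probes (0.32, 0.0577), the methods' t-test (0.33, 0.0607) and the replicate block (0.33, 0.138), and ranged from 0.26 to 0.39 with 1 mouse left out. Per3 at its brightest probe passed with normexp (-0.15, 0.038), the 75th percentile of detected probes (-0.16, 0.0492) and the methods' t-test (-0.15, 0.0403), and ranged from -0.18 to -0.12 with 1 mouse left out. In the same way Nr1d1 ranged from 0.16 to 0.28 and Clock from -0.016 to 0.074. Leaving out B6 replicate 1 and BTBR/R replicate 2 together, chosen after the data were seen, gave 2 clock genes and 4 other clock genes past the adjusted p, left Per1 short of it (0.28, 0.184) and brought Nr1d1 past the threshold (0.31, 0.0423). The cause of these shifts was not tested.

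Changes near 0 turned sign. The Arntl probe A_66_P127371 was at 0.024 with normexp and -0.082 to 0.040 with 1 mouse left out. The Tef probe A_55_P2912692 was at -0.055 with normexp, -0.018 with median scaling, -0.00178 with the 75th percentile of detected probes, -0.00818 without B6 replicate 1 and BTBR/R replicate 2 together and -0.043 to 0.10 with 1 mouse left out. The Dbp probe A_51_P180492 was at -0.00501 with median scaling and -0.010 to 0.052 with 1 mouse left out, and the Tef probe A_52_P173309 ran from -0.00669 to 0.15 there.

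The replicate numbers share only a label (2 of 8 mice correlated best with their own number). A replicate block gave 11693 called probes over the whole array in place of 12697 and took the following, past the adjusted p before, above 0.05: the 5′ Per3 probe (adjusted p = 0.0927), the Tef probe A_52_P485573 (0.0637), Cry2 (0.054), Rorb (0.0741) and Usp2 (0.114). Over the whole array the calls depended on dim probes: 12697 in all, 563 with normexp (231 higher, 332 lower), 2200 with quantile normalization (544 higher) and 1557 with dim probes left out (362 higher). The higher share of calls was 89.9%, and 41.0%, 24.7% and 23.2% in those 3. No scaling moved the median of detected probes by over 0.03. A higher detection limit in BTBR/R arrays restricts the dim Per2 and Cry1 probes.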
